A study of Homo sapiens with 18 samples.

Results

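Endoglin (ENG) and 9 genes of the same receptor system were followed across HepG2 cells that carried a thyroid hormone receptor or an empty plasmid. The 9 others were the ligand TGFB1, the coreceptor TGFBR3, the receptors TGFBR1, ACVRL1, TGFBR2 and BMPR2, the inhibitory SMADs SMAD6 and SMAD7, and the BMP target ID1. They were taken by symbol from the annotated rows of the array table, as the brightest feature that carried that symbol alone. All 10 were found, out of 18404 genes with such a feature, and each had 1. ENG was picked for its rise on hormone where a receptor had been added, so its own hormone response is described here without a test.

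HepG2 is an established human liver cancer line. Clones transfected with TRα1 (6 clones, labelled aWT), TRβ1 (12 clones, labelled bWT) or the empty plasmid (11 clones, labelled NR) were each combined into 1 pool per construct, all selected in G418. Pools were kept for 6 h with 100 nM T3, the active form of thyroid hormone, or with the ethanol vehicle alone in 10% hormone-stripped serum, with 3 arrays per group and 18 in all. Because each construct was 1 pool of clones, the added receptor and other properties of its clones cannot be told apart.

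Endoglin and betaglycan (TGFBR3) are coreceptors that present ligands of the TGF-β family to pairs of type II and type I receptor kinases. The type I kinase then phosphorylates SMAD proteins, which enter the nucleus and switch target genes such as the ID genes. Endoglin is best known from endothelial cells, where it works with ACVRL1 (ALK1) and BMPR2, and inherited loss of ENG or ACVRL1 causes hereditary haemorrhagic telangiectasia. In the liver the same pathway takes part in fibrosis and, through BMP ligands and hepcidin, in iron balance.

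Of the coreceptors among the 10 genes, ENG was higher on T3 in both receptor pools and TGFBR3 was lower. The stretches upstream of their start sites are shown for that reason. Each is the 250 bases before the gene's start in RefSeq (GRCh38.p14), on the gene's strand: chr9:127854659-127854908, minus strand, for ENG, and chr1:91886152-91886401, minus strand, for TGFBR3. Capitals mark the ETS core GGAA or its reverse complement in ENG and the GC box GGGCGG or its reverse complement in TGFBR3.
ENG: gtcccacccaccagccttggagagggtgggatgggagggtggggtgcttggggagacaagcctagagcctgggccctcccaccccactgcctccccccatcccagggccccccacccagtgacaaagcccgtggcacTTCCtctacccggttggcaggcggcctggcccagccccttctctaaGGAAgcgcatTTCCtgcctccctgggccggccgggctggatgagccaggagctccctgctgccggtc
TGFBR3: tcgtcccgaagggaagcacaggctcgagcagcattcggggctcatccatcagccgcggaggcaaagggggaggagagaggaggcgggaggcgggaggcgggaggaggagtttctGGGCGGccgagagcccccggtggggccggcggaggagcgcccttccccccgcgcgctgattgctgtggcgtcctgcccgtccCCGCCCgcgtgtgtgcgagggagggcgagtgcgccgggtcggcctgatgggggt
The ENG window held 3 ETS cores and no GC box, and the TGFBR3 window held 2 GC boxes and 2 ETS cores. Of 35116 such windows in the table, 92.7% held an ETS core and 42.6% a GC box on either strand. The hormone receptor half-site AGGTCA was in neither window and in 12.1% of all windows. These letter matches are descriptions of the windows, and 9 of the 10 genes, ACVRL1 not among them, had a window in the table.

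All levels below are log2 expression values of the array's transcript clusters, and a difference of 1 on this scale is a doubling. They compare the same feature between arrays and not one gene with another. In RNA from whole cultures, a change in the number of expressing cells and a change per cell cannot be told apart. ENG (feature 8164269) stood at 8.01, 7.998 and 7.37 in the 3 TRα1 arrays on T3, against 6.27, 6.69 and 6.36 on vehicle. In the TRβ1 pool it stood at 6.84, 7.12 and 6.94 on T3, against 6.01, 6.44 and 6.07 on vehicle. With the empty plasmid the values were 6.00, 6.08 and 6.13 on T3, against 6.02, 6.19 and 6.17 on vehicle. The T3 arrays of both receptor pools lay above all of their vehicle arrays, and those of the empty-plasmid pool overlapped theirs.

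The mean difference in ENG was 1.35 ± 0.17 (SE, n = 3 per group) in the TRα1 pool, a 2.55-fold change. For TRβ1 it was 0.79 ± 0.17, a 1.73-fold change, and for the empty plasmid -0.06 ± 0.17. Compared by replicate number, ENG was higher on T3 by 1.74, 1.31 and 1.01 in TRα1 cells and by 0.83, 0.68 and 0.88 in TRβ1 cells, and differed by -0.02, -0.11 and -0.05 in empty-plasmid cells. Every receptor-carrying pair was thus higher on T3, with a wider range in the TRα1 pool. Leaving out single arrays gave 1.25 to 1.56 for TRα1 and 0.71 to 0.93 for TRβ1. In order of level, TRα1 on T3 (7.79 ± 0.36, SD, n = 3) came first and TRβ1 on T3 (6.97 ± 0.14) second, and neither overlapped its neighbour in that order. The other 4 groups had means between 6.07 and 6.44, and each overlapped its neighbour in the order.

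The vehicle arrays are the baseline of the hormone responses for which ENG was picked, so its differences on vehicle are also described without a test. The TRα1 vehicle arrays lay above the empty-plasmid vehicle arrays by 0.31 ± 0.17 (SE) without overlap. Over all features, 7.67% did not overlap in this comparison. TRβ1 differed from empty plasmid by 0.05 and from TRα1 by -0.27 on vehicle, and in both comparisons the arrays overlapped.

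TGFBR3 (feature 7917649), the betaglycan coreceptor that presents TGF-β2 and inhibins, was lower on T3 in all 3 pools. It stood at 8.78, 9.31 and 9.28 on T3 in the TRα1 pool, against 9.35, 9.67 and 9.78 on vehicle. In the TRβ1 pool it stood at 9.48, 9.50 and 9.81 on T3, against 9.94, 10.03 and 10.28 on vehicle. With the empty plasmid it stood at 9.30, 9.68 and 9.56 on T3, against 9.49, 9.94 and 9.88 on vehicle. T3 was below vehicle in 9 of 9 same-numbered pairs, and the groups did not overlap in the receptor pools but did in the empty-plasmid pool.

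Averaged over the 3 pools, TGFBR3 differed by -0.41 ± 0.10 (SE) between T3 and vehicle, a level 0.753 times that on vehicle. This missed the threshold, an adjusted p of 0.05 throughout, in the limma fit of 20546 features without a block (adjusted p = 0.148). It passed with the replicate number as a block, a fit that compares arrays within each number, where the standard error was 0.06 (adjusted p = 5.54e-04). With the block it also passed after each of the 18 arrays was left out in turn (adjusted p between 5.56e-04 and 0.0023).

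By pool, TGFBR3 differed by -0.48 in the TRα1 pool (limma adjusted p = 0.0297 with the block, against 1 without it). For TRβ1 the difference was -0.49 (adjusted p = 0.0337 with the block, against 1 without it). In both pools the SE was 0.10 with the block and 0.18 without it. Leaving out single arrays of the pool under the block kept the call in 1 of 6 cases in each of these pools, with an adjusted p of up to 0.182 for TRα1 and 0.245 for TRβ1. With the empty plasmid the difference was -0.26 and did not pass (adjusted p = 0.765 with the block; 95% interval -0.46 to -0.05). The receptor pools' responses differed from that of the empty-plasmid pool by -0.22 (95% interval with the block -0.51 to 0.07) for TRα1 and -0.23 (-0.52 to 0.06) for TRβ1. Neither difference passed (adjusted p = 1 with and without the block), so a larger fall of TGFBR3 with an added receptor was not shown.

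**Figure D1:**
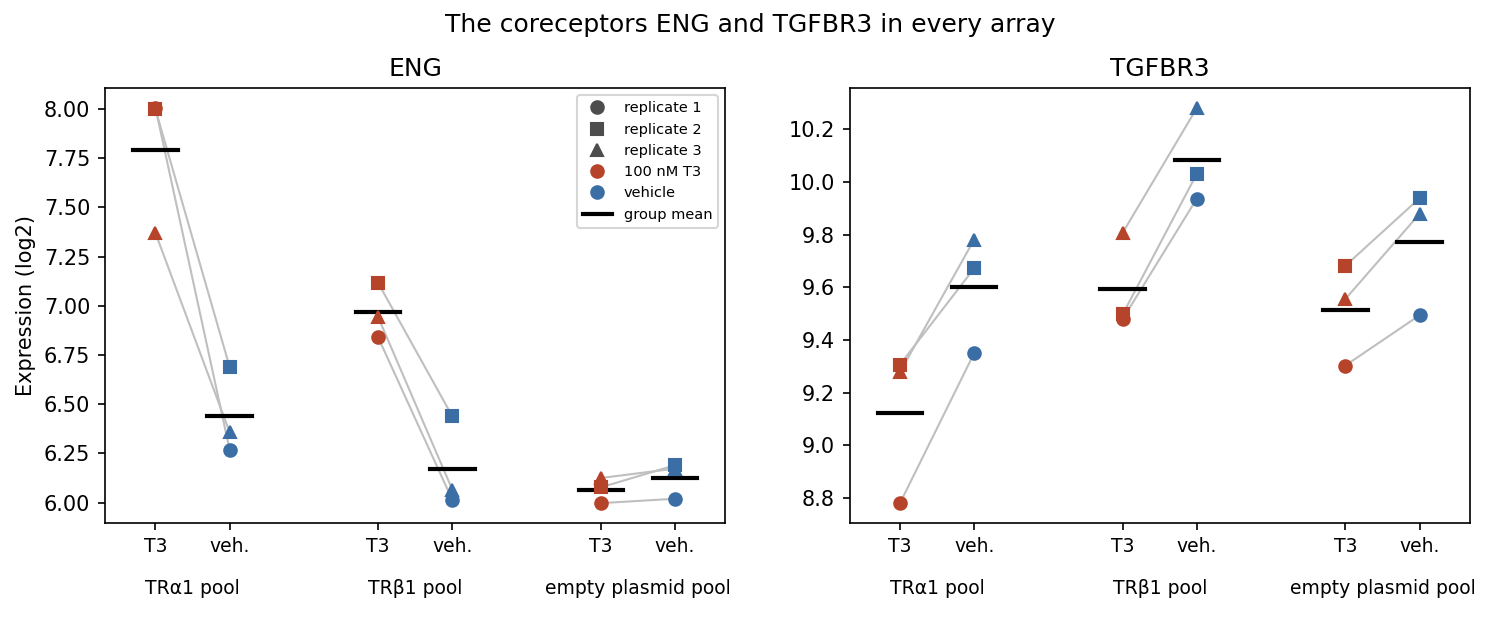
Log2 level of ENG and TGFBR3 on each of the 18 arrays (points), by pool and treatment, with the mean of 3 arrays (bar). ENG on T3 lies between 7.37 and 8.01 in the TRα1 pool and between 6.84 and 7.12 in the TRβ1 pool, above the vehicle arrays of the same pools, and TGFBR3 on T3 has the lower mean in all 3 pools.

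Among the 9 members other than ENG, none passed in limma without the block for T3 in the TRα1 pool, where 0.131% of all features passed, and 1, TGFBR3, passed with it, where 0.667% did. The same held in the TRβ1 pool (0 without, 0.073% of all features; 1 with the block, 0.477%) and for the mean of the 3 pools (0 without, 0.423%; 1 with the block, 1.69%). In the empty-plasmid pool none passed in either fit (0.00973% and 0.0973% of all features). Without the block, 1 of the 9 had an unadjusted p under 0.05 in each of these comparisons, as did 2.55% (TRα1), 2.22% (TRβ1), 2.03% (empty plasmid) and 3.82% (mean) of all features. None of the 9 passed in any of the 3 differences between hormone responses, with or without the block. There 0% of all features passed, except 0.0292% for TRα1 minus empty plasmid with the block. Without the block none of the 9 had an unadjusted p under 0.05 there, against 1.39%, 1.34% and 1.09% of all features for TRα1 minus empty plasmid, TRβ1 minus empty plasmid and TRβ1 minus TRα1.

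TGFB1 (feature 8037005), the ligand, stood at 8.24, 8.91 and 7.95 on T3 in the TRα1 pool, against 8.39, 8.87 and 8.02 on vehicle. In the TRβ1 pool it stood at 8.21, 8.68 and 7.89 on T3, against 8.39, 8.79 and 8.0 on vehicle. Empty-plasmid cells had 7.93, 7.94 and 7.97 on T3, against 8.15, 7.67 and 8.13 on vehicle. T3 and vehicle overlapped in every pool, and the arrays numbered 2 were the highest of both receptor pools. The hormone differences were -0.06, -0.14 and -0.03 in the TRα1, TRβ1 and empty-plasmid pools. On vehicle TGFB1 was 0.44 above empty plasmid with TRα1 and 0.41 above it with TRβ1. Neither passed in limma (adjusted p = 1 without the block, 0.381 and 0.507 with it). Both differences share the empty-plasmid vehicle array numbered 2, the lowest of all arrays at 7.67. By number, both receptor pools were above empty plasmid in numbers 1 and 2. In number 3 they were below it, at 8.02 and 8.0 against 8.13.

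Among the type I receptors, TGFBR1 (ALK5, the main TGF-β type I kinase) stayed between 8.33 and 8.73 on all 18 arrays. Its hormone differences were 0.09, 0.01 and -0.04 in the TRα1, TRβ1 and empty-plasmid pools. ACVRL1, the kinase that endoglin assists in endothelium, stood at 5.30, 5.22 and 5.41 on T3 in the TRα1 pool, against 5.12, 5.34 and 5.37 on vehicle. Empty-plasmid cells had 5.08, 5.19 and 5.21 on T3, against 5.34, 5.38 and 5.36 on vehicle, without overlap. That difference, -0.20, did not pass (adjusted p = 1; 0.770 with the block). In the TRα1 and TRβ1 pools the T3 difference of ACVRL1 was 0.03 and -0.02.

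The type II receptor TGFBR2, which binds TGF-β directly, stood at 9.04, 9.71 and 9.59 on T3 in the TRα1 pool, against 9.13, 9.83 and 9.75 on vehicle. In the TRβ1 pool it stood at 9.06, 9.63 and 9.58 on T3, against 9.24, 9.77 and 9.76 on vehicle. Empty-plasmid cells had 9.06, 9.60 and 9.66 on T3, against 9.21, 9.71 and 9.70 on vehicle. Every array numbered 1 was below every other array, and within each number T3 was slightly below vehicle. TGFBR2 was lower in 9 of 9 pairs with a mean difference of -0.13, which did not pass (adjusted p = 1; 0.137 with the block). TGFBR2 and TGFBR3 were the 2 of 10 members below vehicle in all 9 pairs, as were 1.8% of all features. BMPR2, the BMP type II receptor, had group means between 6.72 and 7.05 and differed by 0.02, -0.13 and 0.02 in the TRα1, TRβ1 and empty-plasmid pools.

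The inhibitory SMADs are themselves switched on by the pathway and dampen it. SMAD6, which acts chiefly on BMP receptors, stood between 6.32 and 6.40 on T3 in the TRα1 pool, against 6.44 to 6.53 on vehicle, and its difference of -0.13 did not pass (adjusted p = 1; 0.953 with the block). SMAD7, which acts on TGF-β and BMP receptors, stood between 6.61 and 6.71 on T3 in the TRβ1 pool, against 6.72 to 6.89 on vehicle, and its difference of -0.13 did not pass either (adjusted p = 1; 0.999 with the block). In the other pools both genes overlapped between T3 and vehicle, with differences between -0.11 and 0.01. Besides ENG, T3 and vehicle did not overlap for TGFBR3 and SMAD6 in the TRα1 pool (5.26% of all features), for TGFBR3 and SMAD7 in the TRβ1 pool (5.04%) and for ACVRL1 in the empty-plasmid pool (6.16%).

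ID1, an inhibitor of basic helix-loop-helix factors and a direct BMP target, showed no hormone difference beyond its spread. It differed by -0.00, 0.03 and 0.06 in the TRα1, TRβ1 and empty-plasmid pools, and the 95% interval with the block was -0.24 to 0.24 in the TRα1 pool. Its arrays split by replicate number instead: the 6 numbered 1 stood between 10.32 and 10.54 and the other 12 between 8.77 and 9.15. Such a split with number 1 on top was found in 8.53% of all features, and with number 1 at the bottom, as in TGFBR2, in 9.42%. The BMP targets ID2 (9.57 to 9.97 in arrays numbered 1, against 8.58 to 9.19 in the others) and ID3 (9.73 to 10.17, against 8.17 to 9.15) split the same way. The other genes in the list of BMP targets, ID4 and HAMP among them, did not split fully by number in either direction. In HAMP the array numbered 1 was nevertheless above the others of its own group in every group.

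**Figure D2:**
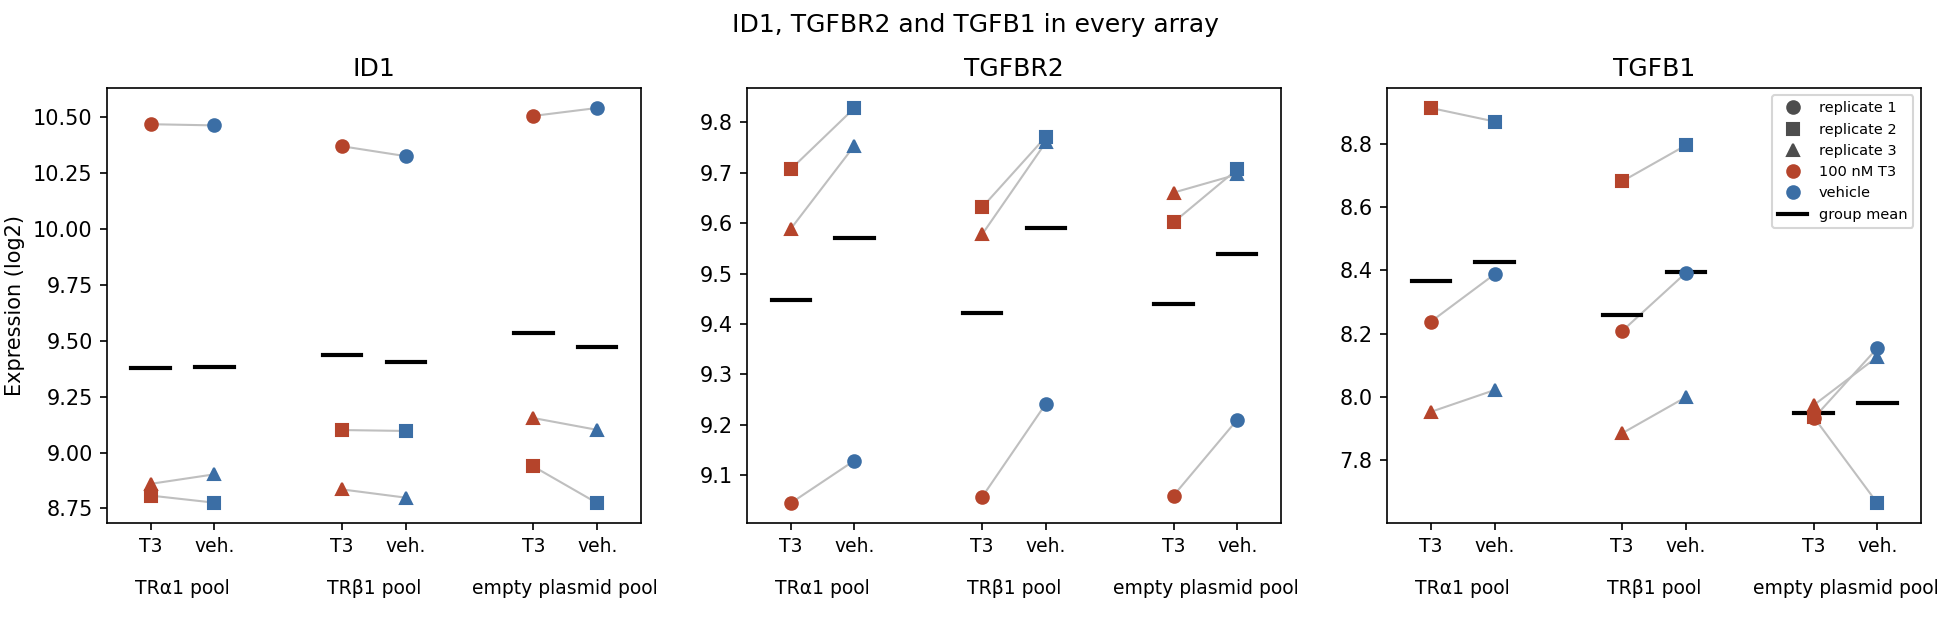
Log2 level of ID1, TGFBR2 and TGFB1 on each of the 18 arrays, by pool and treatment, with the replicate number as the marker. The arrays numbered 1 are the highest for ID1 (10.32 to 10.54) and the lowest for TGFBR2 (9.04 to 9.24) in all groups.

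**Figure D3:**
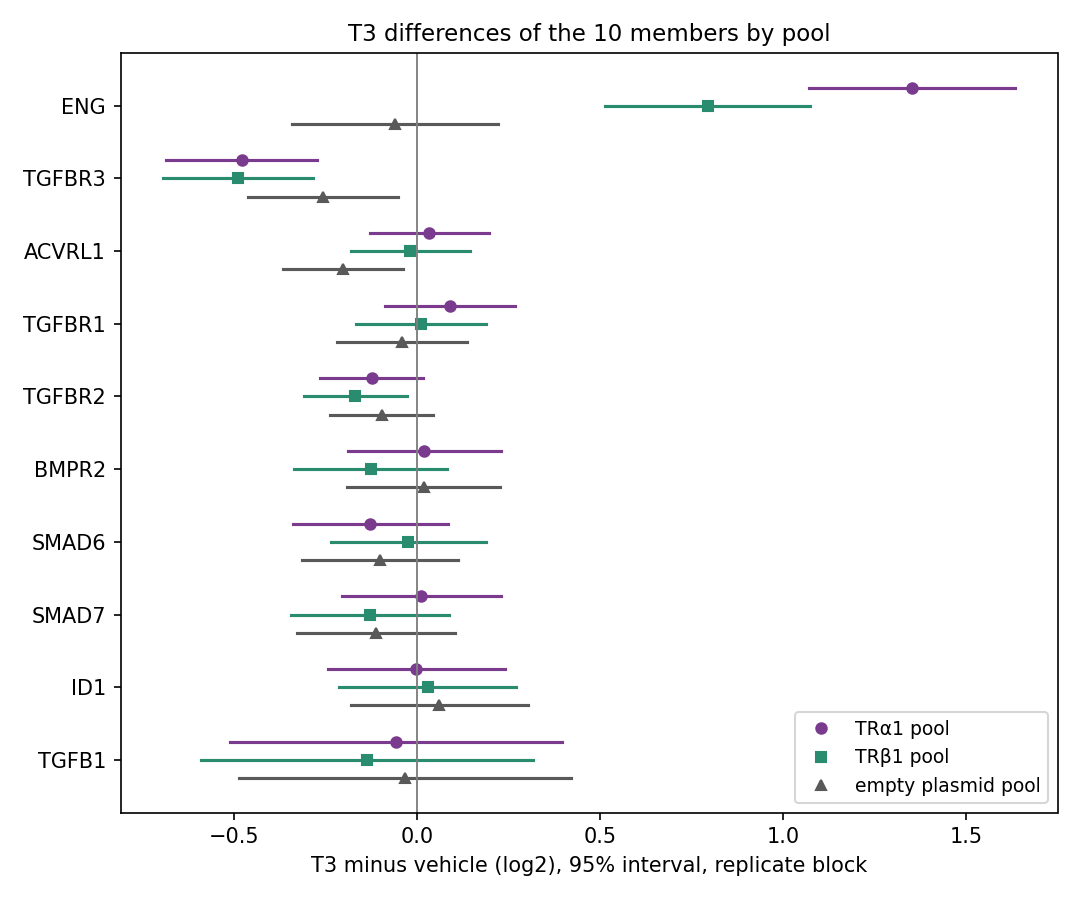
Difference in log2 level, T3 minus vehicle, for the 10 members in each pool, with 95% intervals from the blocked fit. ENG stands at 1.35 and 0.79 in the receptor pools and at -0.06 with the empty plasmid, and TGFBR3 is below 0 in all 3 pools.

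On vehicle, none of the 9 members other than ENG passed in limma without the block, against 0.307% of all features for TRα1 minus empty plasmid, 0.117% for TRβ1 minus empty plasmid and 0% for TRβ1 minus TRα1. At an unadjusted p under 0.05, 1 of them was found in TRβ1 minus TRα1 (2.89% of all features) and none in the others (4.76% and 3.51%). With the block (2.07%, 0.735% and 0.54% of all features), 1 passed, TGFBR3, which was higher in the TRβ1 pool than in the TRα1 pool by 0.48 (adjusted p = 1 without and 0.0358 with the block). That call was kept in 1 of 6 cases when single arrays were left out, with an adjusted p of up to 0.215. The vehicle arrays of both receptor pools did not overlap for TGFBR3, as for 5.47% of all features. None of the 9 was without overlap between TRα1 and empty plasmid, and no member was without overlap between TRβ1 and empty plasmid, where 6.59% of all features were.

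The rest of the pathway was read from lists of coreceptors, receptors, ligands, extracellular regulators, SMADs, inhibitors, target genes and endoglin partners, with 109 genes, 102 of them measured and 92 not members. For the mean T3 response of the 3 pools, 2 of these 92 rose and none fell in limma (0.394% of all features rose), and with the block 7 rose and none fell (1.36% of all features rose). The median difference over these 92 genes was -0.006, against -0.014 over all features. By pool none passed without the block, and with it 2 rose in the TRα1 pool (0.667% of all features passed in either direction), 3 in the TRβ1 pool (0.477%) and 1 in the empty-plasmid pool (0.0973%). None passed in a difference between hormone responses in either fit.

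HIF1A, the oxygen-regulated transcription factor listed as a regulator of ENG, rose on T3 in the mean of the 3 pools. It stood at 10.04, 10.53 and 10.11 on T3 in the TRα1 pool, against 9.58, 9.83 and 9.53 on vehicle. Empty-plasmid cells had 9.72, 9.95 and 10.01 on T3, against 9.32, 9.48 and 9.34 on vehicle. T3 was above vehicle without overlap in both, and in the TRβ1 pool as well. The mean difference of HIF1A was 0.57 ± 0.08 (SE; adjusted p = 0.00161, and 1.01e-05 with the block), with 0.58, 0.61 and 0.51 in the TRα1, TRβ1 and empty-plasmid pools. Without the block the mean call of HIF1A was lost when the arrays numbered 2 (adjusted p = 0.0857) or 3 (0.380) were left out.

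ACVR1B (ALK4), the type I receptor for activins, also rose. It stood at 7.54, 7.70 and 7.54 on T3 in the TRα1 pool, against 6.84, 7.38 and 7.12 on vehicle, and at 7.51, 7.76 and 7.56 on T3 in the TRβ1 pool, against 6.93, 7.28 and 7.05 on vehicle. In the empty-plasmid pool ACVR1B stood at 7.33, 7.38 and 7.39 on T3, against 6.91, 7.07 and 7.14 on vehicle. No pool overlapped. The mean difference of ACVR1B was 0.44 ± 0.08 (SE; adjusted p = 0.0113, and 1.04e-04 with the block). Without the block the call was lost when all arrays of any 1 replicate number were left out (adjusted p between 0.0838 and 0.746). With the block, HIF1A and ACVR1B passed with each of the 18 arrays left out. T3 was above vehicle in 9 of 9 pairs for both genes, as for 2.04% of all features.

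HAMP, which encodes the iron hormone hepcidin and is a BMP target in liver cells, was higher on T3 in every pair. It stood at 8.43, 6.54 and 6.53 on T3 in the TRβ1 pool, against 7.31, 5.85 and 5.96 on vehicle. In the TRα1 pool HAMP stood at 8.89, 6.72 and 7.35 on T3, against 8.21, 6.51 and 6.82 on vehicle, and in the empty-plasmid pool at 8.87, 6.87 and 7.35 on T3, against 8.36, 6.53 and 6.94 on vehicle. Within each group the array numbered 1 was above the other 2, and only the comparison by number separated T3 from vehicle. The mean difference of HAMP was 0.56 (adjusted p = 1 without and 2.21e-04 with the block), and the rise of 0.79 in the TRβ1 pool passed with the block (adjusted p = 0.00488). That last call was lost without TRβ1 T3 array 1 (adjusted p = 0.0573), and leaving out single arrays under the block gave 0.69 to 0.93. Without the block the same removals gave 0.16, without TRβ1 T3 array 1, to 1.27, without TRβ1 vehicle array 1. On vehicle HAMP was lower in the TRβ1 pool than in the empty-plasmid pool by 0.90 and than in the TRα1 pool by 0.81, which passed with the block (adjusted p = 0.00142 and 0.00503) and not without it (adjusted p = 1 in both), also after leaving out each array. Without the block, the TRβ1 minus empty-plasmid value of HAMP lay between -1.38, without TRβ1 vehicle array 1, and -0.36, without empty-plasmid vehicle array 1, and the TRβ1 minus TRα1 value between -1.28, without TRβ1 vehicle array 1, and -0.30, without TRα1 vehicle array 1.

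The other genes that rose in the mean of the 3 pools did so with the block alone. They were GDF15, a stress-induced ligand of the family (0.34; adjusted p = 0.00169), SMAD9, a BMP-activated SMAD (0.28; 0.0249), the BMP target ID2 (0.31; 0.0420) and the TGF-β target BHLHE40 (0.29; 0.0469). GDF15 also passed with each of the 18 arrays left out, while SMAD9 passed in 7, ID2 in 4 and BHLHE40 in 4 of those 18 fits. Without the block the adjusted p was 0.463 for SMAD9 and 1 for GDF15, ID2 and BHLHE40. Among genes named for the widest hormone response of their list, the TGF-β target CCN2 had a mean difference of -0.34 (adjusted p = 0.0525 with the block) and the SMAD corepressor SKIL of 0.20 (0.0595), and neither passed. SOSTDC1, a secreted BMP antagonist, differed by -0.11, 0.28 and -0.29 in the TRα1, TRβ1 and empty-plasmid pools. The activin type II receptor ACVR2B differed by -0.15, -0.20 and -0.15, and none of these passed in either fit. SOSTDC1 stood low, between 2.50 and 3.25 on all 18 arrays, where the median feature with a symbol had a mean of 6.13.

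**Figure D4:**
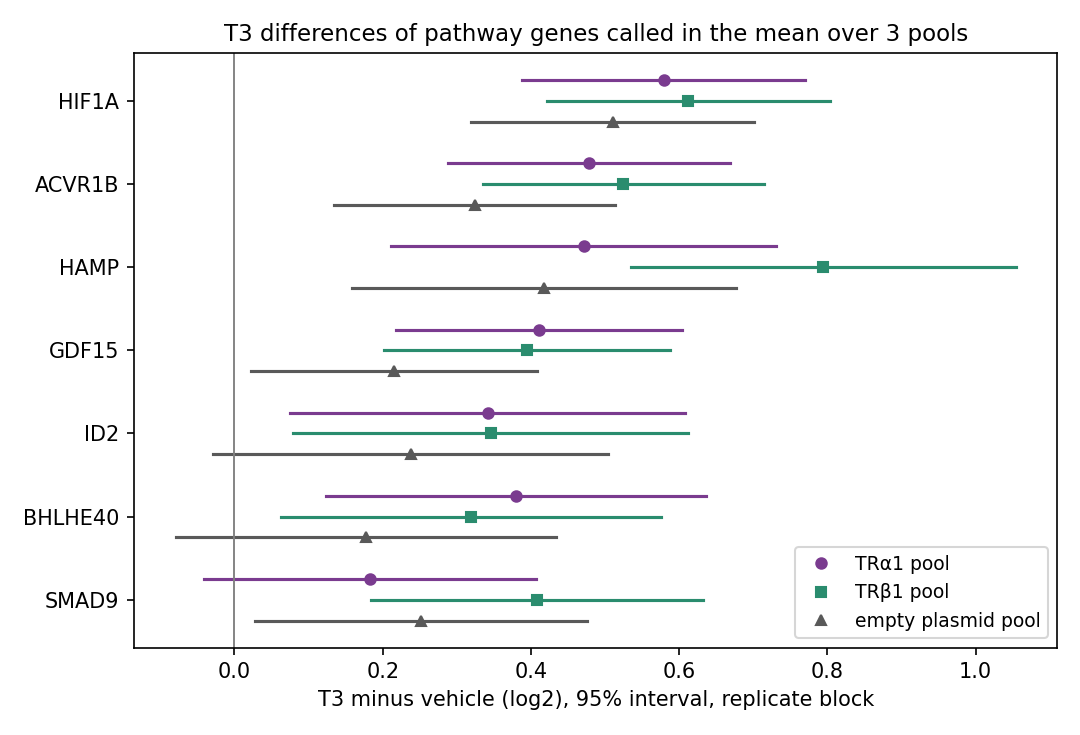
Difference in log2 level, T3 minus vehicle, in each pool for the 7 genes of the pathway lists that passed in the mean of the pools, with 95% intervals from the blocked fit. HIF1A is at 0.58, 0.61 and 0.51 and ACVR1B at 0.48, 0.52 and 0.32 in the TRα1, TRβ1 and empty-plasmid pools.

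On vehicle, 3 list genes differed between the TRα1 and empty-plasmid pools with the block (2.07% of all features) and none without it (0.307%). BAMBI, a pseudoreceptor that blocks TGF-β signalling, stood at 9.43, 8.90 and 8.89 in the TRα1 pool, against 8.60, 7.82 and 8.12 with the empty plasmid, a difference of 0.89 (adjusted p = 0.355 without and 1.56e-04 with the block). That call was kept after leaving out each of the 6 arrays. The coreceptor NRP1 was higher by 0.51 (adjusted p = 0.0263 with the block, kept in 1 of 6 cases) and the protease MMP14, which sheds endoglin from the cell surface, lower at -0.52 (0.0102, kept in 3 of 6). Without the block their adjusted p was 0.533 for NRP1 and 0.465 for MMP14. Between T3 and vehicle, BAMBI was lower on T3 in 9 of 9 same-numbered pairs, as were 1.8% of all features. Its T3 differences of -0.28, -0.21 and -0.14 in the TRα1, TRβ1 and empty-plasmid pools did not pass in either fit.

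The genes whose levels followed ENG most closely were ranked by Pearson's r over the 18 arrays after subtracting the mean of each replicate number, among 19157 features with 1 gene. The 6 highest were PTAFR (0.968), the receptor for platelet-activating factor, FYN (0.945), a Src family kinase, the zinc finger factor SALL2 (0.930), aromatase CYP19A1 (0.921), the kinase MAP3K8 (0.920) and the potassium channel KCNJ10 (0.918). In the TRα1, TRβ1 and empty-plasmid pools, the T3 difference of PTAFR was 1.35, 0.99 and -0.01 and that of SALL2 0.80, 0.52 and 0.00. FYN differed by 1.79, 1.40 and 0.64 and so, unlike ENG, was higher on T3 with the empty plasmid too. These genes were chosen for their likeness to ENG, share its arrays, and are given with no test. Without subtracting the replicate means 3 of the 6 stayed among the first 6, and over the 6 group means 1 did. Among the members, TGFBR3 had an r of -0.744 with ENG and TGFBR2 of -0.423, TGFB1 of 0.372, and the others lay between -0.18 and 0.14.

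**Figure D5:**
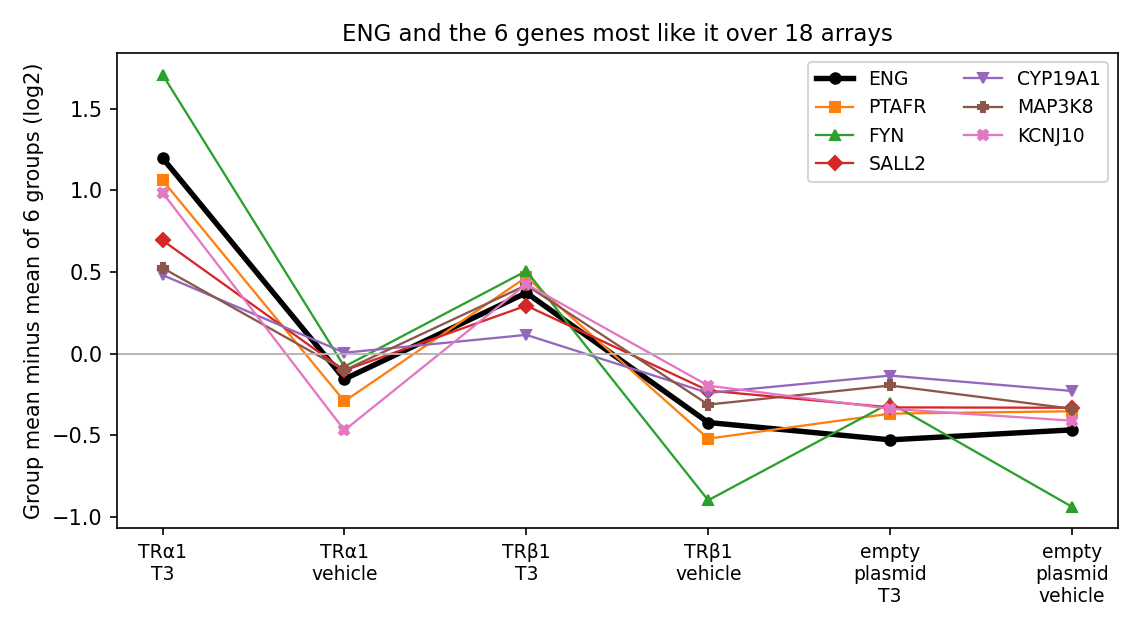
Group mean minus the mean of the 6 groups, in log2 units, for ENG and the 6 genes with the highest correlation to it. All 7 lines are highest in the TRα1 pool on T3.

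The arrays themselves had medians between 5.31 and 5.49. Mean levels over the 18 arrays ran from 7.36 (TFR2) to 12.7 (ALB) among the hepatocyte markers. Among the endothelial markers they ran from 2.61 (EMCN) to 6.67 (EGFL7). Such values differ between probes also for other reasons than abundance. None of the 12 endothelial markers other than ENG passed for T3 in the TRα1 pool or in the mean of the 3 pools, and their summed level in the TRα1 pool was 55.9 to 56.3 on T3, against 54.4 to 58.0 on vehicle. In the TRβ1 pool the sum was 54.8 to 57.5 on T3, against 53.7 to 57.3 on vehicle, and with the empty plasmid 55.3 to 56.6 on T3, against 56.4 to 57.6 on vehicle. The stromal markers ran from a mean of 2.20 (LUM) to 9.27 (ACTA2) and the macrophage markers from 2.46 (PTPRC) to 8.50 (CD68). The median feature with a symbol had a mean of 6.13. Below it lay 0 of 9 measured hepatocyte, 11 of 12 endothelial, 6 of 8 stromal and 6 of 7 macrophage markers. THRA, the gene for TRα, stood at 7.96 ± 0.26 (SD, n = 3) on T3 and 7.50 ± 0.10 on vehicle in the TRα1 pool, and between 7.01 and 7.07 in the other groups. THRB stood at 7.42 ± 0.05 on T3 and 6.95 ± 0.07 on vehicle with TRβ1, 7.19 and 6.74 with TRα1, and 7.07 and 6.65 with the empty plasmid. Which parts of the introduced receptor transcripts these probes read is unknown.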

How the data were processed

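RNA of 18 HepG2 samples, in 6 groups of 3, was hybridised to 1-colour Human Gene ST arrays from Affymetrix, and per the series' design text the 3 samples of a group were independent biological repeats. The deposited table holds log2 expression per transcript cluster, which the authors made with RMA per the submitters' processing notes, which name R 2.7.1. Genome build and further settings are not given in the sources used here. Quantile normalization in RMA gives every array nearly the same distribution, so a change shared by most genes would not be seen. Arrays have no read depth, and 3 per group limit the precision.

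Of 32321 features, 20546 had a gene symbol in the platform annotation, 19158 of them a single one, and 1388 several. A linear model of the 6 groups was fitted to all 20546 with limma 3.58.1 in R 4.3.3, with 10 contrasts and Benjamini-Hochberg adjustment within each (threshold 0.05, two-sided). The fit was run on simulated data with differences of known size added. Only the median size it returned was checked there, and not the error rate of its calls. Replicate numbers in the sample titles pair the arrays: after subtracting group means, all 45 pairs with the same number in different groups correlated across features (lowest r 0.259, median 0.597). Between numbers the median was -0.483. The deviations of a group cancel once its mean is subtracted, so this negative value follows in part from the positive one. Because of this pairing, the fit with the number as a block is given beside each call at the adjusted threshold that it changes. Counts at an unadjusted p under 0.05 are given without the block alone. With it, more of the members other than ENG were under 0.05 for T3 in the TRβ1 pool, the empty-plasmid pool and the mean. The same held for the response of TRα1 minus empty plasmid and for TRβ1 minus empty plasmid on vehicle.

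The members, gene lists, contrasts and naming rules were chosen with earlier results of these data known. All 10 members were named. Other genes were named from the pathway lists where they passed in any contrast in either fit, plus the gene of each list with the largest response. ID3 was named in addition, for its split by replicate number. The alternatives tried were the block, array weights, a variance trend with a robust prior, a filter at a mean of 5 and all features. Centring each array on its median, fitting only the arrays of a contrast, and leaving out arrays were also tried. Leaving out arrays under the block was added after seeing the data. Some genes of the lists were not analysed here.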

Additional observations from a re-analysis of the deposited data

Results flagged for a closer look

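ENG was higher on T3 in every receptor-carrying pair of arrays and slightly below vehicle in every pair of the empty-plasmid pool. There the mean difference was -0.06 and the groups overlapped, with an SD of 0.06 on T3 and 0.09 on vehicle. The standard error of 0.17 is shared by all pools and does not measure the spread of this pool alone. On the log2 scale, the T3 response of ENG was 1.41 larger in the TRα1 pool than in the empty-plasmid pool. In the TRβ1 pool it was 0.85 larger than in the empty-plasmid pool. These differences were not tested, because ENG was chosen for them.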

How the results depend on the processing

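The count of members other than ENG that passed for T3 against vehicle was 0 in the fit without a block. It became 1, TGFBR3, with the replicate block in the TRα1 pool, 1 in the TRβ1 pool and 1 in the mean of the 3 pools, where it was also 1 with array weights (adjusted p = 0.0270) and 1 with each array centred on its median (0.0312). The replicate block also gave 1, TGFBR3, for TRβ1 minus TRα1 on vehicle. It changed no other call of the members besides ENG. The remaining 231 of 237 alternative values were these counts, which stayed at 0, and the ENG difference between T3 and vehicle in each pool. The ENG difference moved by less than 1 SD. Without the block no member was called and ENG was not tested, so there was no call to reverse. The counts that stayed at 0 therefore do not measure how stable a call is. The difference of ENG responses, TRβ1 minus TRα1, was -0.77 without the arrays numbered 3, against -0.56 with them. Over all features, the block raised the counts that passed for T3 against vehicle to 137 with TRα1, 98 with TRβ1, 20 with the empty plasmid and 347 in their mean, where they were 27, 15, 2 and 87 without it. It gave 6 for TRα1 minus empty plasmid in hormone response, against 0, and on vehicle 425, 151 and 111 for TRα1 minus empty plasmid, TRβ1 minus empty plasmid and TRβ1 minus TRα1, against 63, 24 and 0. Leaving out single arrays gave 12 to 24 in the TRα1 pool, lowest without TRα1 T3 array 2, and 5 to 10 in the TRβ1 pool, lowest without TRβ1 vehicle array 1. On vehicle it gave 29 to 45 for TRα1 minus empty plasmid, lowest without empty-plasmid array 3, and 9 to 13 for TRβ1 minus empty plasmid, lowest without empty-plasmid array 2. Without all arrays numbered 2 or 3, the unblocked counts were 8 and 11 in the mean of the pools, 11 and 9 for TRα1 minus empty plasmid on vehicle, and 0 and 1 for TRβ1 minus empty plasmid. Every member had 1 feature, so averaging a gene's features could not change the members and was not fitted. The causes of these changes were not tested.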
